A study of Mus musculus with 9 samples.

Results

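The core autophagy machinery was followed as 32 genes in 5 steps: the ULK kinase complex (5 genes), the lipid kinase complex around Becn1 and Pik3c3 (7 genes), lipid transfer and membrane growth (6 genes), the conjugation enzymes (12 genes) and the transcription factors Tfeb and Tfe3 (2 genes). The genes were chosen by their textbook role, with earlier results of these data known. They were looked up by symbol and Ensembl identifier, and all 32 were found among the 54532 genes of the deposited expression table and among the 12289 tested. RNA sequencing of white cells labelled as myeloid had given 9 libraries in 3 groups of 3. The libraries labelled KO come from mice whose genotype label is a Socs3 knockout, and the libraries labelled Gr_1 and fl come from mice labelled wild type. All mice were C57BL/6 and 6 to 8 weeks old, and no treatment is given. The labels do not spell out Gr_1 or fl, nor whether each library is its own animal or how the knockout was made. P-values therefore measure only the spread between these libraries, which may be technical, although KO A and KO B differ in sex transcripts, as given below. The series' title asks about autophagy-dependent differentiation of early myeloid-derived suppressor cells in Socs3 deficiency, and the comparisons below address the transcript levels of the machinery that such autophagy would use.

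Autophagy encloses part of the cytoplasm in a double membrane, the autophagosome, and delivers it to the lysosome. The ULK kinase complex starts the process, the PI3K complex marks the site with the lipid PI3P, and Wipi proteins, Atg9a and Atg2 proteins bring in the membrane lipid. A pair of ubiquitin-like conjugation systems then attaches LC3 and GABARAP proteins to the growing membrane. Tfeb and Tfe3 turn on lysosomal and autophagy genes when mTORC1 is inactive. In the myeloid lineage, autophagy is known for its part in granulocyte differentiation and in the clearing of ingested material. Much of its control lies in phosphorylation and lipidation, which transcript levels do not record.

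Tfeb and Tfe3 bind the E-box core CACGTG, so the promoters of the members were searched for it. Sequences were taken from a set of RefSeq promoters (GRCm38.p6), with 250 bases before and 50 bases after a listed start. The set held 27 of the 32 members and lacked Pik3c3, Rb1cc1, Atg16l1, Becn1 and Atg12. The core, which reads the same on both strands, lay in 5 of those 27 promoters (18.5%): Atg14, Rubcn, Atg3, Atg5 and Atg7. Of the 27025 symbols in the same set, 8.09% held it. The longer form TCACGTG, on either strand and overlapping the core, lay in 4 of 27 (14.8%), against 4.29% of all symbols. The 250 bases before the listed start are shown for Atg3 and Ulk1 because these genes differed most between Gr_1 and fl among the members, and the other lines give 30 bases around the core. Capitals mark the core and all lines run 5′ to 3′ on the gene's strand.
Atg3, chr16:45158579-45158828 (plus strand): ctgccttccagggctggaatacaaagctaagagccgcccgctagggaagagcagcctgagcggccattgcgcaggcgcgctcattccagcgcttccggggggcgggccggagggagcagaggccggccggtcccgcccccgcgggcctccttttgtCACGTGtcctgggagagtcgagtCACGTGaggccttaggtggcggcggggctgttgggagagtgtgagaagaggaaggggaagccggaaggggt
Ulk1, chr5:110810082-110810331 (minus strand): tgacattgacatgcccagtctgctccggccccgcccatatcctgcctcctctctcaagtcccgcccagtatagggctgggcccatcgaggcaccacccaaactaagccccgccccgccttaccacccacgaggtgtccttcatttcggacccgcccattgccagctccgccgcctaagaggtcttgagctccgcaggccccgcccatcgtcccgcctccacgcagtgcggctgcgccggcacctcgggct
Atg7, chr6:114670952-114670981 (plus strand): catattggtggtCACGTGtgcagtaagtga
Atg5, chr10:44268313-44268342 (plus strand): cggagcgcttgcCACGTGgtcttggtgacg
Atg14, chr14:47568418-47568447 (minus strand): aaaacaaaatccCACGTGactggccctgag
Rubcn, chr16:32868437-32868466 (minus strand): cgcctagcacatCACGTGtacccaggttag
The Atg3 promoter held 2 copies, at positions -94 and -71 from the listed start, and the 300 bases searched for Ulk1 held 0. The starts listed for Atg7, Atg14 and Rubcn lie 27999, 2215 and 9400 bases downstream of the first annotated base of each gene in GENCODE M21, so other starts of these genes were not searched. Of the members in the promoter set, 2 of the 15 that were higher in Gr_1 than in fl held the core, as did 1 of the 4 that were lower and 2 of the 8 that were not called. A match is a description of these letters and says nothing of binding.

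Several properties of the libraries bear on the comparisons. The targeted gene, Socs3, stood at 6.76 to 9.23 FPKM in KO (fragments per kilobase of exon over a denominator per library in M, or mega, fragments), against 33.0 to 37.0 FPKM in Gr_1 and 3.40 to 4.02 FPKM in fl. It was lower in KO than in Gr_1 (log2 change -2.01 ± 0.11, limma, adjusted p = 1.65e-05) and higher in KO than in fl (0.93 ± 0.11, adjusted p = 0.00136), so it went against the knockout label relative to fl and with it relative to Gr_1. Lyz2, the lysozyme gene at whose locus the LysM-Cre driver of myeloid deletion is inserted in other mouse lines, stood at 53.2 to 59.8 FPKM in KO, against 10486 to 10808 FPKM in Gr_1 and 8670 to 9998 FPKM in fl. All KO libraries thus stood apart from every other library in Lyz2, and the labels do not say whether the KO mice carry that driver. KO B carried Xist at 58.5 FPKM and 0 fragments of 4 Y-linked genes, KO A carried the Y-linked genes (26.5 FPKM summed) and almost no Xist, and KO C carried both (26.3 FPKM of Xist and 14.2 FPKM of the Y-linked genes). All Gr_1 and fl libraries carried the Y-linked genes (30.7 to 39.3 FPKM in Gr_1, 16.6 to 27.3 FPKM in fl) and at most 0.0104 FPKM of Xist. Sex transcripts thus differed in part with the KO label, and their part in the comparisons with KO was not tested. KO C lay between KO A and KO B in 22 of the 32 members (68.8%), against 61.4% of all genes tested. If their order were random, each of the 3 KO libraries would hold the middle place equally often. Results are therefore also given without it. The summed level of 8 late neutrophil markers was 1194 to 2899 FPKM in KO, 9372 to 10357 FPKM in Gr_1 and 445 to 471 FPKM in fl, with none of the 8 at 0 in any group. Early granulocyte markers (5 genes) summed to 3103 to 6571 FPKM in KO, 187 to 295 FPKM in Gr_1 and 3795 to 5654 FPKM in fl, and monocyte markers (6 genes) to 669 to 684 FPKM in KO, 418 to 465 FPKM in Gr_1 and 998 to 1114 FPKM in fl. B cell markers (6 genes) summed to 41.5 to 81.6 FPKM in KO, 303 to 330 FPKM in Gr_1 and 69.3 to 91.7 FPKM in fl. Eosinophil markers (4 genes) summed to 4534 to 9264 FPKM in KO, 1324 to 1706 FPKM in Gr_1 and 4158 to 8844 FPKM in fl, where fl C was the highest. Basophil and mast cell markers (5 genes) summed to 332 to 452 FPKM in KO, 86.4 to 167 FPKM in Gr_1 and 89.0 to 202 FPKM in fl, and all 5 were called higher in KO than in fl. NK cell markers (5 genes) summed to 130 to 251 FPKM in KO, 15.5 to 21.2 FPKM in Gr_1 and 139 to 201 FPKM in fl. Of these, 4 were called higher in KO than in fl, as were 8 late neutrophil, 1 eosinophil, 2 T cell, 1 erythroid or platelet and 2 progenitor markers. In that comparison 5 monocyte and 3 macrophage markers were called lower, and 0 early granulocyte and 0 B cell markers were called. Of all genes tested, 4.48% were called higher and 6.52% lower. Macrophage markers (7 genes) summed to 107 to 128 FPKM in KO, 121 to 132 FPKM in Gr_1 and 178 to 184 FPKM in fl. T cell markers (6 genes) summed to 6.07 to 7.54 FPKM, 4.54 to 5.80 FPKM and 0.881 to 1.78 FPKM in that order. For erythroid and platelet markers (6 genes) the sums were 87.1 to 94.2 FPKM, 121 to 191 FPKM and 34.2 to 61.3 FPKM. Progenitor markers (4 genes) gave 29.4 to 41.5 FPKM, 12.3 to 16.1 FPKM and 17.0 to 25.4 FPKM. The part of these cell types in the results below was not tested, and in bulk RNA fewer cells of a type and less RNA per cell cannot be told apart. Recovered depth was 18.3 to 21.5 M fragments per library.

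The machinery as a whole was expressed at a middle level. The median member stood at 7.21 FPKM in KO, 9.12 FPKM in Gr_1 and 8.02 FPKM in fl, which places it at percentile 54.2, 59.9 and 56.7 among all genes tested. Atg101 and Atg3 were the most abundant members in each group, and Tecpr1, Atg10 and Atg14 were among the least abundant. FPKM summed over the 32 members was 309 ± 9.34 in KO, 439 ± 4.79 in Gr_1 and 319 ± 5.29 in fl (SD, n = 3 each). The sums of KO and fl lay close together, while all Gr_1 libraries lay above both.

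Most members were higher in Gr_1 than in fl or KO, and few differed between KO and fl. On the log2(FPKM + 1) scale, with limma and Benjamini-Hochberg adjustment over all genes tested, 18 members rose and 4 fell in Gr_1 over fl at an adjusted p under 0.05. Of all genes tested, 61.4% were called in that comparison, 30.0% as higher and 31.4% as lower. The median member change was 0.27, beside -0.03 over all genes. For KO over Gr_1, 2 members rose and 19 fell, with a background of 55.7% called (26.7% higher, 28.9% lower) and a median of -0.31, beside 0.01 over all genes. For KO over fl, 1 member rose and 3 fell, and 11.0% of all genes were called (4.48% higher, 6.52% lower), so the 4 of 32 (12.5%) is close to the background. The member median of -0.03 for KO over fl stands beside -0.01 over all genes. Without KO C, limma called 0 of the 32 members for KO over fl (6 at an unadjusted p under 0.05, 1 higher and 5 lower), 17 higher and 3 lower for Gr_1 over fl, and 1 higher and 19 lower for KO over Gr_1. The libraries of the groups did not overlap for 10 members in KO over fl (31.4% of all genes tested), 23 in Gr_1 over fl (67.5%) and 23 in KO over Gr_1 (68.2%). The comparisons share libraries in pairs and are not independent of one another.

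**Figure D1:**
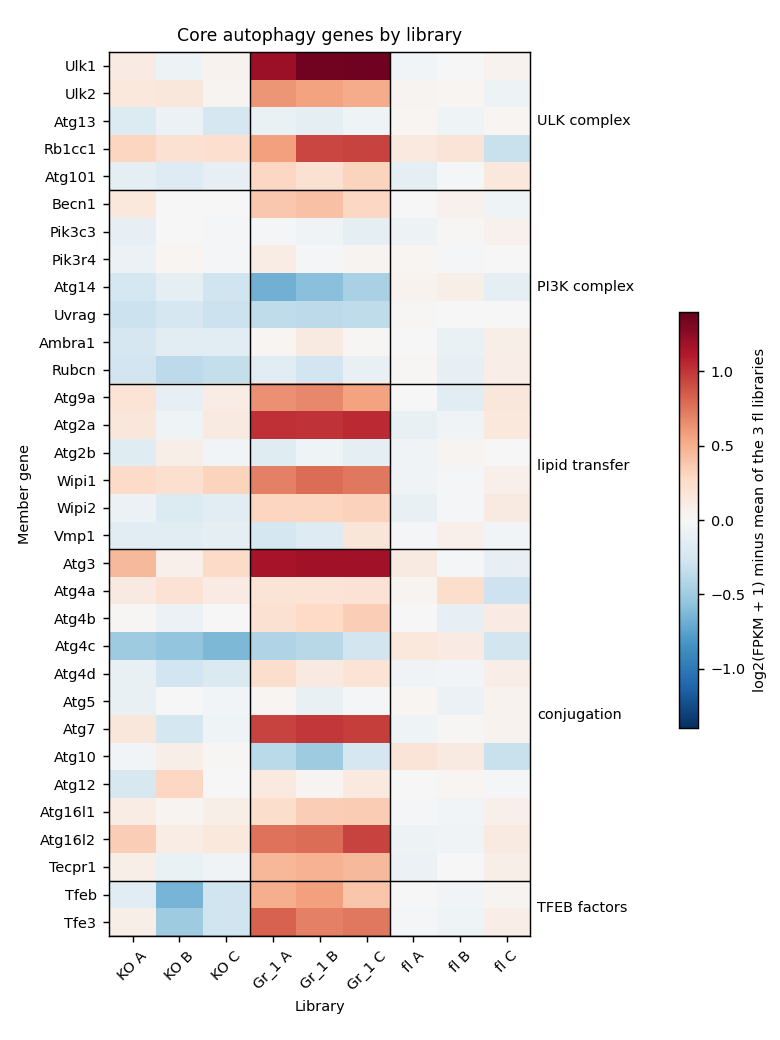
Level of the 32 members in each library, as log2(FPKM + 1) minus the mean of the 3 fl libraries, with members in rows by step and libraries in columns. Red marks a higher and blue a lower value. The Gr_1 columns hold the deepest red for Ulk1, Atg3, Atg2a and Atg7, and the KO columns stay pale for most members, with Atg4c blue in all 3.

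The 10 most abundant genes of a library held 25.8% to 30.4% of its FPKM in KO, 38.5% to 39.4% in Gr_1 and 24.3% to 25.3% in fl. An alternative scale therefore left out the 10 genes with the highest mean over all libraries and brought every library to an equal sum. This also replaced the deposited scaling between libraries, so the shifts below reflect both steps. The median change of all genes then moved by 0.07 for KO over fl, -0.09 for Gr_1 over fl and 0.16 for KO over Gr_1, to 0.06, -0.12 and 0.17. The calls became 1 higher and 1 lower for KO over fl, 17 higher and 7 lower for Gr_1 over fl, and 5 higher and 14 lower for KO over Gr_1. On that scale Uvrag and Rubcn were no longer called for KO over fl. Atg13, Pik3c3 and Rubcn joined the members lower in Gr_1 than in fl, and Atg4d left those higher. For KO over Gr_1, Becn1, Ambra1, Rb1cc1, Atg4b and Atg16l1 were no longer called, and Uvrag, Pik3c3 and Atg5 were called higher in KO, by 0.09, 0.03 and 0.0049 relative to the median of all genes.

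**Figure D2:**
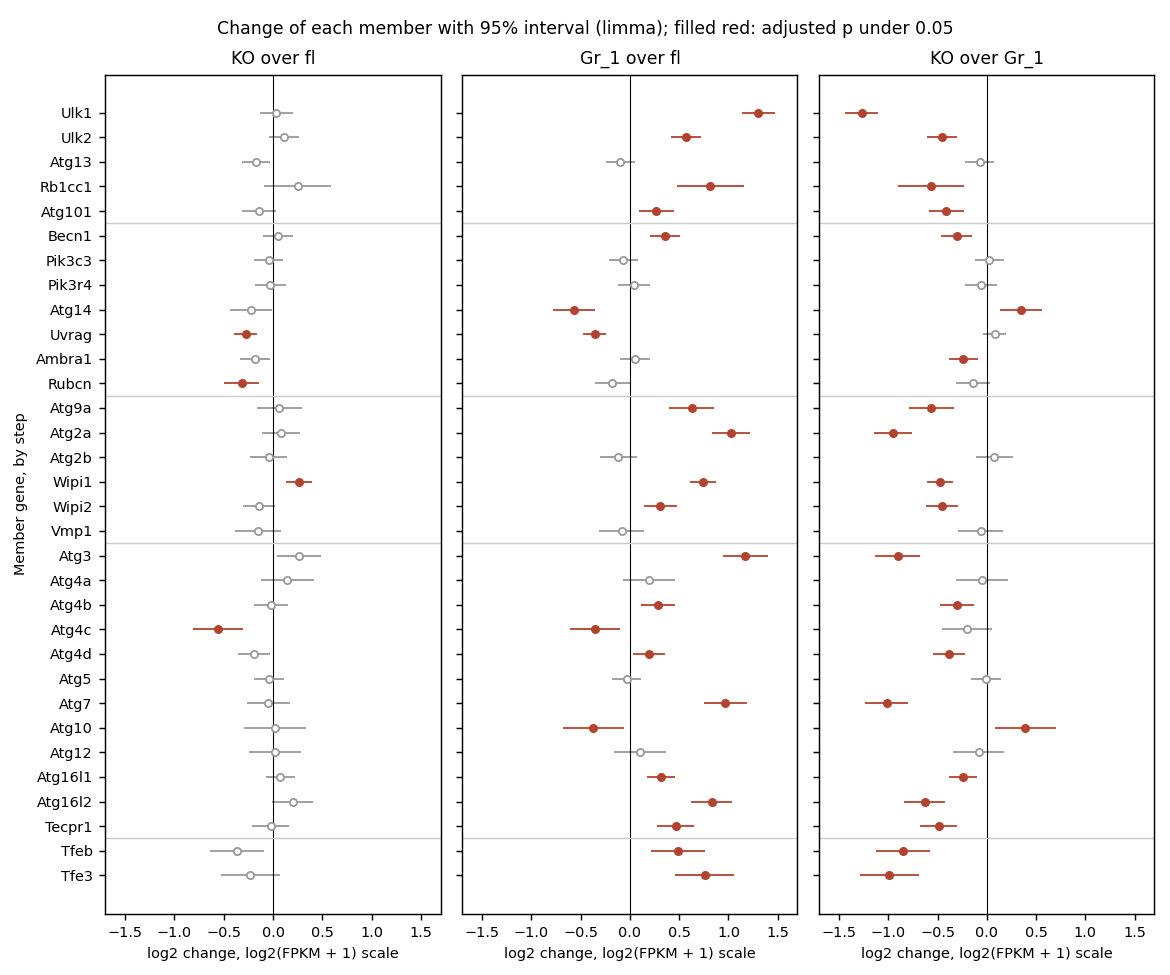
Log2 change of each member on the log2(FPKM + 1) scale with its 95% interval from limma, for KO over fl, Gr_1 over fl and KO over Gr_1. Filled red points passed an adjusted p of 0.05. KO over fl has 4 filled points, and Gr_1 over fl and KO over Gr_1 have 22 and 21.

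In the ULK complex 4 of 5 members, all but Atg13, were higher in Gr_1 than in fl and lower in KO than in Gr_1, and no member was called for KO over fl. Of all genes tested, 30.0% were called higher in Gr_1 than in fl and 28.9% lower in KO than in Gr_1. Ulk1 (chr5:110784488-110810097, GRCm38, minus strand) encodes the kinase that starts autophagy. It had 8.52, 7.38 and 8.06 FPKM in the libraries labelled KO, 19.1, 21.3 and 21.6 FPKM in Gr_1 and 7.51, 7.74 and 8.08 FPKM in fl. The Gr_1 libraries stood far above all others, while KO and fl overlapped. Ulk1 was 2.66-fold higher in Gr_1 than in fl by mean FPKM, a log2 change of 1.30 ± 0.07 (SE, limma, adjusted p = 2.91e-06), and changed by -1.27 ± 0.07 for KO over Gr_1 (adjusted p = 1.8e-05). For KO over fl the 95% interval of the log2 change was -0.13 to 0.20 (limma, adjusted p = 0.812). Its paralog Ulk2 had 5.16, 5.2 and 4.71 FPKM in the libraries labelled KO, 7.55, 7.22 and 7.0 FPKM in Gr_1 and 4.74, 4.69 and 4.3 FPKM in fl. Gr_1 was again above every other library, and its change was 0.57 ± 0.07 for Gr_1 over fl (limma, adjusted p = 0.000114) and -0.45 ± 0.07 for KO over Gr_1 (adjusted p = 0.000551).

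Rb1cc1, also known as FIP200, is the large scaffold of the complex. It had 3.4, 3.13 and 3.18 FPKM in the libraries labelled KO, 4.28, 5.8 and 5.85 FPKM in Gr_1 and 2.92, 3.02 and 1.86 FPKM in fl. No Gr_1 library overlapped with KO or fl, and fl C was the lowest of all. The log2 change was 0.82 ± 0.15 for Gr_1 over fl (limma, adjusted p = 0.00135) and -0.57 ± 0.15 for KO over Gr_1 (adjusted p = 0.0107). Atg101, which stabilises Atg13, had 39.9, 38.8 and 40.7 FPKM in the libraries labelled KO, 53.9, 51.1 and 54.8 FPKM in Gr_1 and 40.1, 43.4 and 48.9 FPKM in fl. All Gr_1 libraries were the highest, and the change over fl was 0.27 ± 0.08 (limma, adjusted p = 0.0141), with an adjusted p of 0.0518 without fl A. KO over Gr_1 gave -0.41 ± 0.08 (limma, adjusted p = 0.00199). Atg13, which links the kinase to the scaffold, had 8.26 to 9.32 FPKM in the libraries labelled KO, 8.95 to 9.46 FPKM in Gr_1 and 9.51 to 10.2 FPKM in fl. It was not called in any comparison, and its change for KO over fl was -0.17 ± 0.06 (limma, adjusted p = 0.127). FPKM summed over the complex was 64.7 ± 0.861 in KO, 95.7 ± 2.60 in Gr_1 and 69.0 ± 3.97 in fl (SD, n = 3 each).

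In the PI3K complex, for Gr_1 over fl, only Becn1 of its 7 members was called higher, and Atg14 and Uvrag were called lower (42.9% called, beside 61.4% of all genes tested). Its summed FPKM was 50.7 ± 0.578 in KO, 55.4 ± 0.866 in Gr_1 and 55.8 ± 0.225 in fl (SD, n = 3 each). Its median change was -0.07 for Gr_1 over fl and -0.18 for KO over fl. Becn1, the scaffold on which the alternative complexes form, had 17.1, 15.3 and 15.3 FPKM in the libraries labelled KO, 20.1, 20.6 and 19 FPKM in Gr_1 and 15.4, 16 and 14.6 FPKM in fl. The Gr_1 libraries were above all others and KO and fl overlapped. The change was 0.36 ± 0.07 for Gr_1 over fl (limma, adjusted p = 0.00171) and -0.31 ± 0.07 for KO over Gr_1 (adjusted p = 0.00466). Of the exon bases of Becn1, 43.9% are shared with Cntd1 on the opposite strand, and no source used here gives the strand used in counting, so the level of Becn1 is uncertain.

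Atg14 and Uvrag are alternative partners of Becn1: the complex with Atg14 works at the forming autophagosome and the complex with Uvrag on endosomes. Atg14 had 2.54, 2.82 and 2.46 FPKM in the libraries labelled KO, 1.65, 1.8 and 2.07 FPKM in Gr_1 and 3.36, 3.47 and 2.82 FPKM in fl. Gr_1 was the lowest group without overlap, and KO and fl both reached 2.82 FPKM. The change was -0.57 ± 0.09 for Gr_1 over fl (limma, adjusted p = 0.000773) and 0.35 ± 0.09 for KO over Gr_1 (adjusted p = 0.0124). Uvrag (chr7:98885021-99141141, GRCm38, minus strand) had 9.44, 9.89 and 9.43 FPKM in the libraries labelled KO, 9.05, 8.96 and 9.03 FPKM in Gr_1 and 12, 11.7 and 11.8 FPKM in fl. The fl libraries were above all others, and KO lay just above Gr_1. Uvrag fell by 0.28 ± 0.05 on the log2 scale in KO over fl (limma, adjusted p = 0.0115) and changed by -0.36 ± 0.05 in Gr_1 over fl (adjusted p = 0.000375). The KO call was lost without KO C (-0.27, adjusted p = 0.0664) and with the 10 most abundant genes left out (-0.20, adjusted p = 0.0663). Of its exon bases, 17.6% are shared with Gm45187 on the opposite strand.

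Rubcn encodes Rubicon, which binds the Uvrag complex and restrains it. It had 4.81, 4.43 and 4.56 FPKM in the libraries labelled KO, 5.26, 4.79 and 5.49 FPKM in Gr_1 and 6.08, 5.47 and 6.44 FPKM in fl. Every KO library was below every fl library, and Gr_1 overlapped both. The change for KO over fl was -0.32 ± 0.08 (limma, adjusted p = 0.0316). The call was lost, at adjusted p from 0.0539 to 0.115, without KO B, KO C, Gr_1 A, fl A or fl C. For Gr_1 over fl Rubcn was not called, but gave an adjusted p of 0.0391 without fl B. Ambra1, a Becn1-binding scaffold, had 6.88, 7.3 and 7.28 FPKM in the libraries labelled KO, 8.41, 9.08 and 8.37 FPKM in Gr_1 and 8.31, 7.72 and 8.79 FPKM in fl. KO lay below both wild-type groups, and its change over Gr_1 was -0.24 ± 0.07 (limma, adjusted p = 0.0143), with an adjusted p of 0.0595 without Gr_1 B. The lipid kinase itself, Pik3c3, had 7.8 to 8.49 FPKM in the libraries labelled KO, 7.7 to 8.31 FPKM in Gr_1 and 8.01 to 8.91 FPKM in fl. Its regulatory partner Pik3r4 had 2.45 to 2.72 FPKM in the libraries labelled KO, 2.57 to 2.91 FPKM in Gr_1 and 2.58 to 2.72 FPKM in fl. The libraries of all groups overlapped for both, and neither was called in any comparison, with all 6 log2 changes between -0.07 and 0.04.

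Of the lipid transfer genes, 4 of 6 were higher in Gr_1 than in fl and the same 4 lower in KO than in Gr_1: Atg9a, Atg2a, Wipi1 and Wipi2. That is 66.7% called in each comparison, beside 61.4% of all genes tested for Gr_1 over fl and 55.7% for KO over Gr_1. Wipi1 (chr11:109573331-109611967, GRCm38, minus strand), a PI3P-binding protein, was the only member called higher in KO than in fl. It had 14.3, 13.8 and 14.7 FPKM in the libraries labelled KO, 19.8, 20.9 and 20.1 FPKM in Gr_1 and 11.3, 11.5 and 12.3 FPKM in fl. The groups did not overlap, with fl lowest, KO between and Gr_1 highest. The change was 0.27 ± 0.06 for KO over fl (limma, adjusted p = 0.022), 0.74 ± 0.06 for Gr_1 over fl (adjusted p = 1.31e-05) and -0.47 ± 0.06 for KO over Gr_1 (adjusted p = 0.000236). The KO over fl call was lost when KO A, KO C, fl A or fl B was left out, at adjusted p from 0.0516 to 0.108 and log2 changes from 0.24 to 0.26. Wipi2, which recruits the conjugation machinery to PI3P, had 5.07, 4.67 and 4.79 FPKM in the libraries labelled KO, 6.96, 6.97 and 7.05 FPKM in Gr_1 and 5.0, 5.38 and 6.02 FPKM in fl. Gr_1 was highest, and the KO and fl libraries overlapped. Its change was 0.31 ± 0.07 for Gr_1 over fl (limma, adjusted p = 0.00496) and -0.45 ± 0.07 for KO over Gr_1 (adjusted p = 0.000832).

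Atg2a and Atg2b carry lipid from the endoplasmic reticulum to the growing membrane. Atg2a had 10.5, 8.89 and 10.2 FPKM in the libraries labelled KO, 19.8, 19.7 and 20.3 FPKM in Gr_1 and 8.55, 8.97 and 10.4 FPKM in fl. Gr_1 held about the same value in its 3 libraries, well above the others, and KO and fl overlapped. The change was 1.03 ± 0.08 for Gr_1 over fl (limma, adjusted p = 1.65e-05) and -0.95 ± 0.08 for KO over Gr_1 (adjusted p = 5.61e-05). Atg2b had 2.83 to 3.58 FPKM in the libraries labelled KO, 2.83 to 3.15 FPKM in Gr_1 and 3.18 to 3.43 FPKM in fl, and was not called in any comparison. Atg9a, a scramblase carried on vesicles, had 11.2, 8.93 and 10.5 FPKM in the libraries labelled KO, 15.8, 16.1 and 14.9 FPKM in Gr_1 and 9.69, 8.65 and 11 FPKM in fl. Gr_1 stood apart from both other groups, with a change of 0.63 ± 0.10 over fl (limma, adjusted p = 0.00066) and -0.57 ± 0.10 for KO over Gr_1 (adjusted p = 0.00154). Of the exon bases of Atg9a, 32.6% are shared with Gm29253 on the same strand. Vmp1, a scramblase of the endoplasmic reticulum, had 13.6 to 13.8 FPKM in the libraries labelled KO, 12.8 to 17.3 FPKM in Gr_1 and 14.9 to 16.1 FPKM in fl. It was not called in any comparison, but without Gr_1 C its change for Gr_1 over fl was -0.21 (limma, adjusted p = 0.0252). FPKM summed over the step was 56.1 ± 2.33 in KO, 80.2 ± 2.38 in Gr_1 and 54.9 ± 2.74 in fl (SD, n = 3 each).

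Among the 12 conjugation genes, 7 were higher and 2 lower in Gr_1 than in fl, and 1 was higher and 7 lower in KO than in Gr_1. The share called was 75% and 66.7%, beside 61.4% and 55.7% of all genes tested. Atg4c alone was called for KO over fl. Atg7 is the activating enzyme that serves both conjugation systems. It had 14.5, 10.7 and 12.4 FPKM in the libraries labelled KO, 25.7, 26.7 and 26.1 FPKM in Gr_1 and 12.3, 13 and 13.4 FPKM in fl. Gr_1 was about 2 times the level of the other groups (a ratio of 2.03 over fl), and the KO libraries lay on both sides of fl. The change was 0.97 ± 0.10 for Gr_1 over fl (limma, adjusted p = 4.26e-05) and -1.02 ± 0.10 for KO over Gr_1 (adjusted p = 6.76e-05). For KO over fl the 95% interval was -0.27 to 0.17 (limma, adjusted p = 0.787). Atg3 (chr16:45158785-45188538, GRCm38, plus strand), the conjugating enzyme that hands LC3 and GABARAP proteins to the lipid, had 36.3, 27.7 and 31.9 FPKM in the libraries labelled KO, 59.9, 60.8 and 60.6 FPKM in Gr_1 and 28.8, 26.1 and 24.2 FPKM in fl. The Gr_1 libraries lay within a narrow band at the top, and KO B overlapped fl. The change was 1.17 ± 0.10 for Gr_1 over fl (limma, adjusted p = 1.87e-05) and -0.91 ± 0.10 for KO over Gr_1 (adjusted p = 0.000135). For KO over fl it was 0.26 ± 0.10 (adjusted p = 0.131), and without KO B 0.36 (limma, adjusted p = 0.0403).

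Atg10, the conjugating enzyme that joins Atg12 to Atg5, went the other way from Atg3. It had 2.14, 2.41 and 2.27 FPKM in the libraries labelled KO, 1.49, 1.28 and 1.74 FPKM in Gr_1 and 2.67, 2.52 and 1.61 FPKM in fl. Gr_1 was below KO without overlap, while fl C lay among the Gr_1 libraries. The change was -0.37 ± 0.14 for Gr_1 over fl (limma, adjusted p = 0.0415) and 0.39 ± 0.14 for KO over Gr_1 (adjusted p = 0.0377). Both calls were lost when any 1 of KO A, KO B, KO C, Gr_1 A or Gr_1 B was left out, and the first also without fl A or fl B, at adjusted p from 0.0522 to 0.138. Atg5 had 15.4, 16.8 and 16.1 FPKM in the libraries labelled KO, 17, 15.3 and 16.3 FPKM in Gr_1 and 17, 15.6 and 17.3 FPKM in fl. All groups overlapped, and the 95% interval of the log2 change was -0.19 to 0.11 for KO over fl, -0.18 to 0.12 for Gr_1 over fl and -0.16 to 0.14 for KO over Gr_1. Its partner Atg12, a ubiquitin-like protein, had 18 to 26.2 FPKM in the libraries labelled KO, 21.8 to 23.6 FPKM in Gr_1 and 20.9 to 21.7 FPKM in fl. Atg12 was not called in any comparison, and KO held both its lowest and its highest library.

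Atg16l1 binds the joined Atg12 and Atg5 and directs them to the membrane, and Atg16l2 is its paralog. Atg16l1 had 5.1, 4.83 and 5.0 FPKM in the libraries labelled KO, 5.75, 6.24 and 6.24 FPKM in Gr_1 and 4.56, 4.51 and 4.97 FPKM in fl. Atg16l2 had 6.76, 5.56 and 5.78 FPKM in the libraries labelled KO, 9.32, 9.55 and 10.8 FPKM in Gr_1 and 4.82, 4.9 and 5.65 FPKM in fl. Gr_1 was above all other libraries for both, and the rise over fl was 0.32 ± 0.06 for Atg16l1 (limma, adjusted p = 0.00242) and 0.83 ± 0.09 for Atg16l2 (adjusted p = 8.17e-05). KO over Gr_1 gave -0.24 ± 0.06 for Atg16l1 (limma, adjusted p = 0.0111) and -0.63 ± 0.09 for Atg16l2 (adjusted p = 0.000538). Tecpr1, which binds the joined Atg12 and Atg5 at lysosomes, had 1.85, 1.52 and 1.62 FPKM in the libraries labelled KO, 2.72, 2.78 and 2.7 FPKM in Gr_1 and 1.55, 1.7 and 1.87 FPKM in fl. It was the least abundant member in KO and in fl. Its change was 0.47 ± 0.08 for Gr_1 over fl (limma, adjusted p = 0.00117) and -0.49 ± 0.08 for KO over Gr_1 (adjusted p = 0.00118).

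The proteases of the Atg4 family cut LC3 and GABARAP proteins before conjugation and release them afterwards, and their transcripts differed in direction. Atg4c (chr4:99193934-99259787, GRCm38, plus strand) had 3.89, 3.73 and 3.47 FPKM in the libraries labelled KO, 4.17, 4.27 and 4.79 FPKM in Gr_1 and 6.65, 6.51 and 4.78 FPKM in fl. All KO libraries were below all fl libraries, and fl C was far below fl A and fl B and close to Gr_1 C. The change was -0.56 ± 0.11 for KO over fl (limma, adjusted p = 0.0147) and -0.36 ± 0.11 for Gr_1 over fl (adjusted p = 0.0213). The KO over fl call was lost when fl A, fl B or KO C was left out (adjusted p from 0.0545 to 0.0674), and the Gr_1 over fl call without Gr_1 A, Gr_1 B, fl A or fl B (0.0616 to 0.0756). For KO over Gr_1 it was called without fl C (-0.20, limma, adjusted p = 0.0291).

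Atg4b had 5.68, 5.26 and 5.62 FPKM in the libraries labelled KO, 6.7, 7.03 and 7.44 FPKM in Gr_1 and 5.65, 5.11 and 6.15 FPKM in fl. Gr_1 stood above the rest, with a change of 0.28 ± 0.08 for Gr_1 over fl (limma, adjusted p = 0.0107) and -0.31 ± 0.08 for KO over Gr_1 (adjusted p = 0.00828). Atg4d had 7.78, 6.86 and 7.19 FPKM in the libraries labelled KO, 10.2, 9.33 and 9.81 FPKM in Gr_1 and 8.1, 8.16 and 9.08 FPKM in fl. Every Gr_1 library was above all others, and KO was below fl without overlap though not called (-0.19 ± 0.07, limma, adjusted p = 0.13). KO over Gr_1 gave -0.38 ± 0.07 (adjusted p = 0.00199). The rise of Atg4d in Gr_1 over fl, 0.19 ± 0.07 (limma, adjusted p = 0.0434), was lost without KO C, without any 1 Gr_1 library, and without fl A or fl B, at adjusted p from 0.0545 to 0.131. Of its exon bases, 19.3% are shared with Kri1 on the opposite strand. Atg4a, an X-linked gene, had 5.67 to 6.08 FPKM in the libraries labelled KO, 6.03 to 6.1 FPKM in Gr_1 and 4.06 to 6.3 FPKM in fl. It was not called in any comparison, but without fl B its change for Gr_1 over fl was 0.31 (limma, adjusted p = 0.0308). FPKM summed over the 12 conjugation genes was 119.7 ± 2.99 in KO, 173 ± 2.61 in Gr_1 and 116 ± 2.43 in fl (SD, n = 3 each).

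Both transcription factors were higher in Gr_1 than in fl and lower in KO than in Gr_1, as were 30.0% and 28.9% of all genes tested in the respective comparison. Tfeb had 13.8, 9.45 and 12.5 FPKM in the libraries labelled KO, 22.4, 23.5 and 20.5 FPKM in Gr_1 and 15.5, 15 and 15.9 FPKM in fl. The 3 groups did not overlap, with KO lowest and KO B the lowest library. The change was 0.49 ± 0.12 for Gr_1 over fl (limma, adjusted p = 0.00655), -0.85 ± 0.12 for KO over Gr_1 (adjusted p = 0.00044) and -0.36 ± 0.12 for KO over fl (adjusted p = 0.0908). Tfe3, which is X-linked, had 7.65, 4.77 and 5.69 FPKM in the libraries labelled KO, 13.5, 12.3 and 12.5 FPKM in Gr_1 and 6.97, 6.82 and 7.66 FPKM in fl. KO A lay within the range of fl and KO B far below it. The change was 0.76 ± 0.13 for Gr_1 over fl (limma, adjusted p = 0.00105), -0.99 ± 0.13 for KO over Gr_1 (adjusted p = 0.000339) and -0.23 ± 0.13 for KO over fl (adjusted p = 0.307). Without KO A, limma called KO over fl for Tfeb (-0.47, adjusted p = 0.0396) and for Tfe3 (-0.39, adjusted p = 0.0338).

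**Figure D3:**
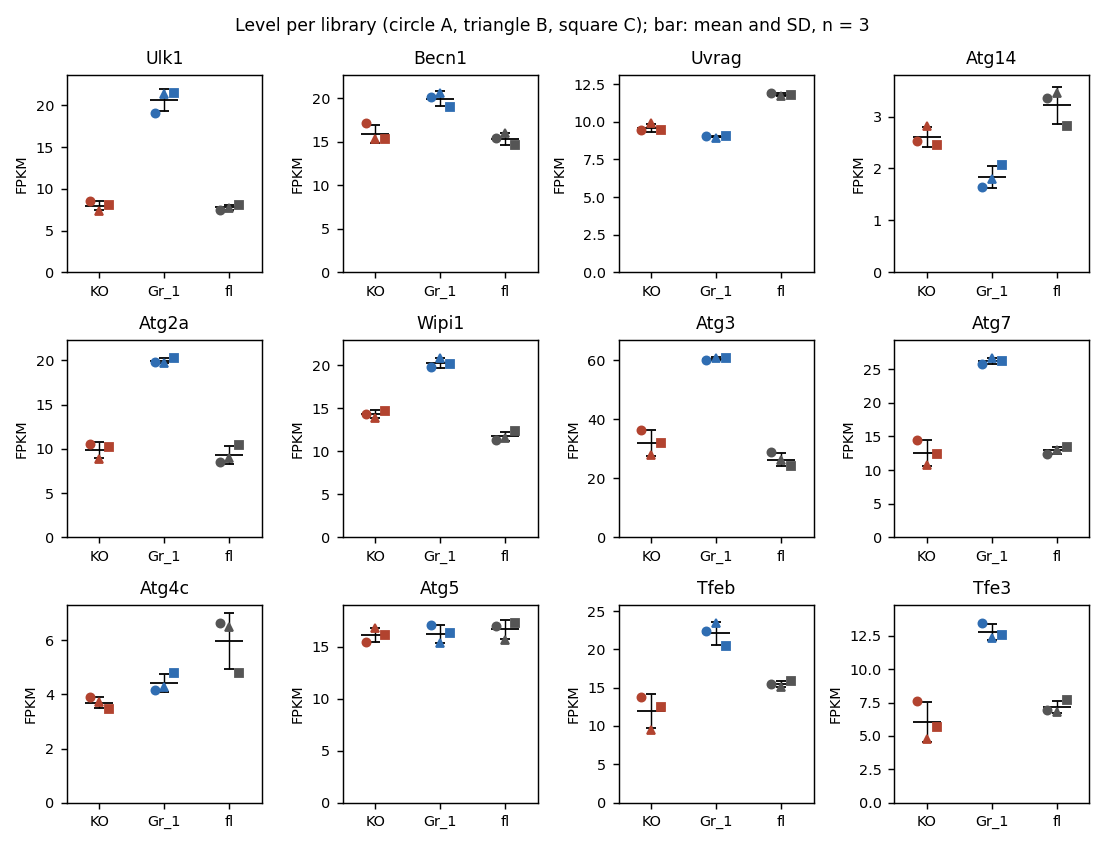
FPKM of 12 members in each library, with the group mean and SD (n = 3) as bars and libraries A, B and C as circle, triangle and square, on axes that start at 0. Gr_1 stands apart upwards for Ulk1, Atg2a, Atg3, Atg7, Wipi1 and Tfe3 and downwards for Atg14, and the groups overlap for Atg5.

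The KO libraries differed among themselves. Of the 18 members called higher in Gr_1, 14 (77.8%) had the order KO A above KO C above KO B, and 0 had the reverse. Among all 3686 genes called higher in Gr_1, 62.7% had that order, as did 33.6% of all genes tested. The sum of the 8 late neutrophil markers had the same order, with 2899 FPKM in KO A, 1194 FPKM in KO B and 2037 FPKM in KO C. Their part in the members' levels was not tested. The mean of KO lay between those of Gr_1 and fl for 16 members, below both for 15 and above both for 1. In fl, library C lay farther from A and B than these lay from each other for 19 of the 32 members (59.4%), against 60.2% of all genes tested.

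For pairs and sets of related genes, and for the alternative partners Atg14 and Uvrag, the share of each in the summed FPKM was computed. Ulk1 held 61.4 ± 2.37% of the sum of Ulk1 and Ulk2 in KO, 74.0 ± 2.02% in Gr_1 and 62.9 ± 2.08% in fl (SD, n = 3 each). Atg2a held 75.4 ± 3.76% of the Atg2 pair in KO, 87 ± 0.671% in Gr_1 and 73.6 ± 1.78% in fl. Gr_1 had the highest mean share of Ulk1 and of Atg2a. Wipi1 held 74.7 ± 0.808% of the Wipi1 and Wipi2 sum in KO, 74.3 ± 0.551% in Gr_1 and 68.3 ± 1.05% in fl, so that KO and Gr_1 overlapped and both lay above fl. Atg16l1 held 45.3 ± 2.01% of its pair in KO, 38.1 ± 1.4% in Gr_1 and 47.8 ± 0.931% in fl. Atg14 held 21.3 ± 0.772% of the sum of Atg14 and Uvrag in KO, 16.9 ± 1.63% in Gr_1 and 21.4 ± 1.84% in fl. Tfeb held 66.5 ± 2.19% of the sum of Tfeb and Tfe3 in KO, 63.4 ± 1.90% in Gr_1 and 68.4 ± 0.775% in fl. Atg4c held 16.6 ± 0.657% of the Atg4 sum in KO, 16.1 ± 0.818% in Gr_1 and 23.5 ± 3.23% in fl, and Atg4a 26.1 ± 1.51%, 22.2 ± 0.488% and 20.6 ± 3.64%. Of the 10 shares compared, the groups did not overlap in 4 for KO over fl, 7 for Gr_1 over fl and 6 for KO over Gr_1. In the levels of all genes tested, the groups did not overlap for 31.4%, 67.5% and 68.2%, so these counts are near that background. The Atg4 shares divide 1 sum and are not independent of one another. Each share without overlap gave p = 0.1 in an exact two-sided permutation test, the smallest value that 3 against 3 libraries allow, so no share can pass 0.05.

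**Figure D4:**
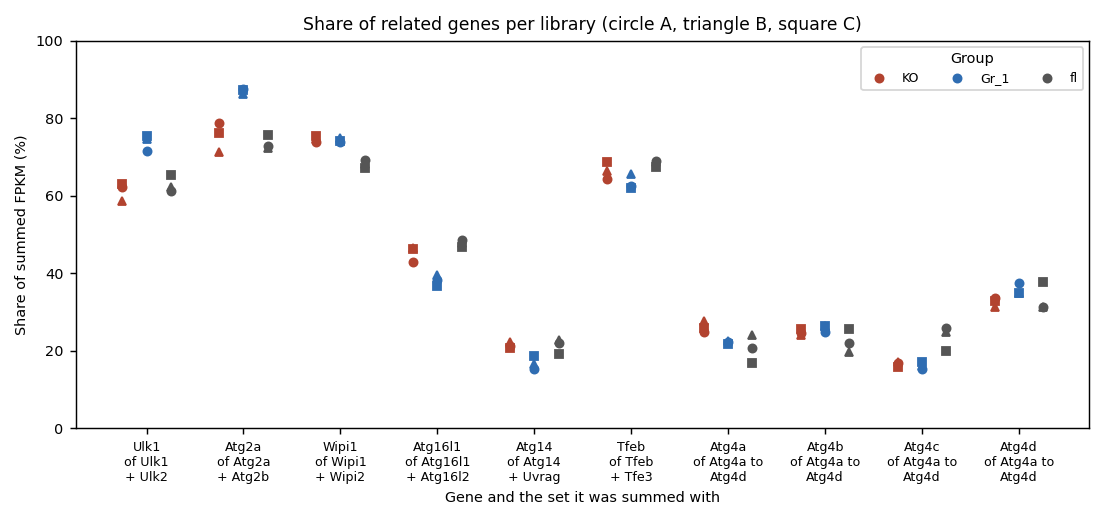
Share of a gene in the summed FPKM of its related set in each library, in percent, with KO, Gr_1 and fl side by side and libraries A, B and C as circle, triangle and square. Ulk1 and Atg2a take a larger share in Gr_1, Wipi1 a larger share in KO and Gr_1, and Atg4c a larger share in fl.

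The 56 other genes of the pathway, of which 55 were tested, were counted in the same fit. Of them, 32 were higher and 9 lower in Gr_1 than in fl, 5 were higher and 32 lower in KO than in Gr_1, and 2 were higher and 4 lower in KO than in fl. The share called was 74.5% for Gr_1 over fl, 67.3% for KO over Gr_1 and 10.9% for KO over fl, beside 61.4%, 55.7% and 11.0% of all genes tested, so the KO over fl share is that of the background. Without KO C, limma called 0 of them for KO over fl (9 at an unadjusted p under 0.05, 3 higher and 6 lower). Of the LC3 and GABARAP proteins, 4 of 5 were higher in Gr_1 than in fl, beside 30.0% of all genes tested. Map1lc3b, the LC3 form most used as a marker of autophagosomes, averaged 19.4 ± 2.16 FPKM in KO, 45.5 ± 0.578 FPKM in Gr_1 and 18.8 ± 1.03 FPKM in fl (SD, n = 3 each). Its log2 change was 1.23 ± 0.08 for Gr_1 over fl (limma, adjusted p = 6.35e-06) and 0.04 ± 0.08 for KO over fl (adjusted p = 0.81). Map1lc3a (0.92 ± 0.08) and Gabarap (0.74 ± 0.09) were also higher in Gr_1 than in fl, while Gabarapl1 was lower (-0.78 ± 0.23, limma, adjusted p = 0.0151). KO over Gr_1 gave -1.19 ± 0.08 for Map1lc3b, -0.89 ± 0.08 for Map1lc3a, -0.79 ± 0.09 for Gabarap and 0.60 ± 0.23 for Gabarapl1, all called. The call of Gabarapl1 was marginal (limma, adjusted p = 0.0498), and KO A (6.78 FPKM) lay within the Gr_1 range of 5.02 to 7.91 FPKM. It was lost without KO B or KO C, with a pseudocount of 0.1 and with the 2 groups alone, among other alternatives.

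Of 11 cargo receptors, which hold cargo to LC3, 10 were higher in Gr_1 than in fl (90.9%, beside 30.0% of all genes tested). Retreg1, a receptor for the endoplasmic reticulum, averaged 8.39 ± 0.519 FPKM in KO, 23.5 ± 1.77 FPKM in Gr_1 and 6.2 ± 0.587 FPKM in fl (SD, n = 3 each). It rose by 1.77 ± 0.08 in Gr_1 over fl (limma, adjusted p = 1.57e-06) and by 0.39 ± 0.08 in KO over fl (adjusted p = 0.0215). Optn, a receptor for mitochondria and bacteria, and Wdfy3 rose in Gr_1 over fl by 0.98 ± 0.09 and 0.91 ± 0.08 (limma, adjusted p = 3.6e-05 and 2.07e-05). Sqstm1, the receptor p62, averaged 53.7 ± 0.921 FPKM in KO, 70.2 ± 3.38 FPKM in Gr_1 and 54 ± 3.78 FPKM in fl (n = 3 each). In KO over Gr_1 9 receptors were lower (81.8%, beside 28.9% of all genes tested), with the smallest adjusted p for Retreg1 (-1.38 ± 0.08), Wdfy3 (-1.0 ± 0.08) and the mitochondrial receptor Bnip3l (-0.43 ± 0.06). The change of Sqstm1 was 0.37 ± 0.07 for Gr_1 over fl (limma, adjusted p = 0.00133) and -0.01 ± 0.07 for KO over fl (adjusted p = 0.965).

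Of 12 genes for fusion with the lysosome, 5 were higher in Gr_1 than in fl and 2 lower, which is 58.3% called, close to the 61.4% of all genes tested. Plekhm1, an adaptor between Rab7 and LC3, rose by 0.86 ± 0.09 (limma, adjusted p = 7.25e-05), Rab7 by 0.64 ± 0.09 and the SNARE Stx17 by 0.67 ± 0.09, while the tethering subunits Vps16 (-0.34 ± 0.07) and Vps33a (-0.37 ± 0.09) fell. For KO over Gr_1, Plekhm1 (-0.89 ± 0.09), Rab7 (-0.71 ± 0.09) and Stx17 (-0.46 ± 0.09) had the smallest adjusted p of the 5 that were lower, and Vps16 (0.29 ± 0.07) was higher. The share of the fusion genes called there was 50%, beside 55.7% of all genes tested. The list of upstream kinases also holds their subunits and regulators. Its 16 genes tested split into 6 higher and 4 lower in Gr_1 than in fl, which is 62.5% called beside 61.4% of all genes tested. The AMPK subunits Prkab1 (1.47 ± 0.09) and Prkaa1 (1.01 ± 0.10) and the kinase-complex subunit Mlst8 (0.57 ± 0.09) rose, and Deptor (-1.07 ± 0.10), Prkab2 (-0.68 ± 0.10) and Akt1s1 (-0.34 ± 0.09) fell (limma, adjusted p at most 0.00986). Prkab1 (0.35 ± 0.09) was also higher in KO than in fl, and 4 were lower, with the smallest adjusted p for Rraga (-0.38 ± 0.08), Prkab2 (-0.48 ± 0.10) and Flcn (-0.28 ± 0.07). For KO over fl 31.25% of this list was called, beside 11.0% of all genes tested. The kinases Mtor, Prkaa1 and Stk11 were not called there. No gene of the list was called without KO C or without fl B, and only Rraga without fl A. For KO over Gr_1, Prkab1 (-1.12 ± 0.09), Prkaa1 (-0.83 ± 0.10) and Prkag1 (-0.57 ± 0.11) had the smallest adjusted p of the 8 that were lower, and Deptor (0.68 ± 0.10), an inhibitor of mTOR, was higher. This is 56.25% called, beside 55.7% of all genes tested. Mtor averaged 5.14 ± 0.0809 FPKM in KO, 6.47 ± 0.112 FPKM in Gr_1 and 5.3 ± 0.651 FPKM in fl (SD, n = 3 each), a change of 0.25 ± 0.08 for Gr_1 over fl (limma, adjusted p = 0.0219).

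Of the relatives of Tfeb and Tfe3, Tfec was lower in Gr_1 than in fl and Mitf was not called. Tfec averaged 6.36 ± 1.63 FPKM in KO, 0.78 ± 0.246 FPKM in Gr_1 and 6.92 ± 0.355 FPKM in fl (SD, n = 3 each), a change of -2.16 ± 0.16 for Gr_1 over fl (limma, adjusted p = 8.52e-06) and 2.03 ± 0.16 for KO over Gr_1 (adjusted p = 3.53e-05). Mitf gave -0.23 ± 0.11 for Gr_1 over fl (limma, adjusted p = 0.0987) and -0.40 ± 0.11 for KO over fl (adjusted p = 0.0524). Of 9 PI3P phosphatases and regulators, 7 rose in Gr_1 over fl (77.8%, beside 30.0% of all genes tested), with the smallest adjusted p for the PI3P-binding protein Zfyve1 (0.67 ± 0.07), the phosphatase Mtmr3 (0.67 ± 0.08) and Sh3glb1 (1.04 ± 0.16), which binds the Uvrag complex. Bcl2, which binds and restrains Becn1, fell by 0.49 ± 0.11 on the log2 scale (limma, adjusted p = 0.0044). For KO over Gr_1, 6 were lower (66.7%, beside 28.9% of all genes tested), with the smallest adjusted p for Zfyve1 (-0.74 ± 0.07), Sh3glb1 (-1.29 ± 0.16) and Mtmr3 (-0.65 ± 0.08), and Bcl2 was higher (0.70 ± 0.11, limma, adjusted p = 0.000892).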

How the data were processed

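The authors deposited FPKM values, 1 column for each library, per the file headers. The submitters' processing notes name featureCounts 1.5.0-p3, DESeq2 1.16.1, mm10 and GRCm38 with no role; the aligner and strand setting are not given in the sources used here. Fragments were recovered as FPKM times the GENCODE M21 exon length in kb times a denominator per library (16.0 to 22.0 M), found from the steps between low values: 97.2% to 97.5% of values under 1000 fragments per library came out whole within 0.02. Totals were 18.3 to 21.5 M fragments, and 3 fragments of a 1 kb gene equal 0.136 to 0.187 FPKM, a floor for counting error alone. The denominator was below the total in the Gr_1 libraries, for example 16.0 against 19.0 M in Gr_1 A. It was above the total in the KO and fl libraries, for example 21.7 against 19.65 M in KO B and 22.0 against 20.8 M in fl A. The deposited values are thus not scaled to these totals.

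A gene needed 1 FPKM in 3 or more libraries to enter the limma fit (version 3.58.1, R 4.3.3, mean-variance trend) of log2(FPKM + 1) over 9 libraries with 1 term per group and 6 residual degrees of freedom. Fold changes on this scale understate low genes. Tests were two-sided with Benjamini-Hochberg adjustment over all 12289 genes; errors are SE for changes and SD for levels, and per-library values run A, B, C. The procedure was also run on simulated counts with a fixed spread for every gene and changes in KO alone. That setting is simpler than these libraries, so the run does not measure how reliable the calls given here are. Other values came from Python 3.11.15, numpy 2.4.6, pandas 2.3.3 and scipy 1.17.1, and figures from matplotlib 3.10.9. Alternatives were a pseudocount of 0.1, no filter, a 5 FPKM filter, scaling without the 10 most abundant genes, limma-voom on recovered fragments, the 2 groups alone, a block on the library letter, and leaving out each library.

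Members and lists were chosen with earlier results of these data known. All members are named; those called in any comparison, and Becn1, Ulk1, Atg5, Atg7, Tfeb and Tfe3, have values per library. Each other list names its called genes, at most 3 per direction and comparison by adjusted p, or its 2 most abundant genes, and Map1lc3b, Sqstm1 and Mtor always.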

Additional observations from a re-analysis of the deposited data

How the results depend on the processing

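Across 16 alternatives, no called member changed the sign of its log2 change. For KO over fl none of the 4 called members stayed called under every alternative. For Gr_1 over fl 15 of 22 did: Atg10, Atg101, Atg4c and Atg4d lost the call under some alternative, and Atg14, Rb1cc1 and Tecpr1 were not tested under the 5 FPKM filter and stayed called under the others. In KO over Gr_1 13 of 21 did: Ambra1, Atg10, Atg16l1, Atg4b, Becn1 and Rb1cc1 lost it, and Atg14 and Tecpr1 were likewise not tested under that filter. Members called for KO over fl numbered 2 with the 10 most abundant genes left out and 2 with the 2 groups alone, and 0 to 5 when each library was left out in turn. Other pathway genes called for KO over fl numbered 3 with no filter on low values, 2 with the 2 groups alone, 2 with the replicate block and 0 to 6 when each library was left out. Atg5, uncalled for KO over Gr_1 at -0.01, was called at 0.17 (limma, adjusted p = 0.0466) with the 10 most abundant genes left out, which moved the median of all genes by 0.16. Whether the libraries' letters pair them was not settled. Deviations of same-letter libraries correlated at -0.0618 to 0.140, with KO A and fl A the highest, and those of different-letter libraries at -0.132 to 0.0818. With the replicate block, which leaves 4 residual degrees of freedom, members called were 0 higher and 3 lower for KO over fl, 17 and 3 for Gr_1 over fl, and 1 and 19 for KO over Gr_1. The 5 FPKM filter left 25 members tested, with 17 called in Gr_1 over fl and 17 in KO over Gr_1.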
